A study of Homo sapiens with 8 samples.

Results

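The EGF receptor family and its ligands were followed in a NOTCH1-labelled derivative of MCF10A cells and in MCF10A itself after 3 days under ginkgolic acid, which inhibits SUMO conjugation, or under its solvent DMSO. The members, taken by gene name, were the receptor genes EGFR, ERBB2 and ERBB3, the ligand genes AREG, EREG, HBEGF, TGFA, BTC and EGF, and NRG1, a ligand gene of the neuregulin branch. Of these 10 genes, 9 had a row of their own in both deposited tables, out of 41680 gene rows that both tables hold. ERBB3 appeared only in a row that joins it with PA2G4.

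The study had 8 samples in 4 groups of 2, and the labels leave unsaid whether these were separate cultures. NOTCH1-labelled cells, which the labels describe as MCF10A that overexpress the NOTCH1 intracellular domain, received 30 µM ginkgolic acid in 1 group and DMSO in the other, and so did MCF10A, a human line of mammary epithelium that is not tumorigenic. The sources used here do not give the promoter behind the NOTCH1 transgene or the number of clones. Cells of all groups grew with 20 ng/ml epidermal growth factor in the medium, together with 5% horse serum, 10 µg/ml insulin, 100 ng/ml cholera toxin and 500 ng/ml hydrocortisone, so the receptor had its ligand from outside in every sample.

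Each gene had 1 deposited FPKM per group, that is a count of fragments relative to transcript length and library size. The spread between the 2 samples of a group, and the depth, are therefore unknown, and no difference below was tested against replicate error. In place of a test, a gene was counted as higher or lower when its groups were at least 2-fold apart, among genes with at least 1 FPKM in either group. The tables of the lines were normalized separately, so a level set across the lines carries an unknown factor.

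The family has the membrane receptors EGFR, ERBB2, ERBB3 and ERBB4. Ligand binding lets them pair and phosphorylate each other, which switches on the RAS-MAPK and PI3K-AKT cascades. ERBB2 has no known ligand and ERBB3 has little kinase activity, so both act mainly as partners. The ligands are made as membrane precursors, most of which are cut free by ADAM metalloproteases. MCF10A cells depend on added epidermal growth factor for growth, and several ligands act on the same cells that make them.

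Markers were read before the members. The list of 8 basal mammary epithelial markers also holds EPCAM and CDH1, which are general epithelial genes and not particular to basal cells. In the NOTCH1-labelled line the 7 of 8 that had their own row lay between 14.2 and 990.2 FPKM over both groups. In MCF10A the 6 with their own row lay between 5.68 and 114 FPKM. Under ginkgolic acid 2 of the 7 were higher by 2-fold or more and 0 lower, beside 18.9% and 18.8% of all genes. In MCF10A 1 of the 6, EPCAM, was higher and 3, KRT14, TP63 and CDH1, were lower, beside 24.3% and 15.2%. The 5 luminal hormone receptor markers lay between 0.438 and 3.82 FPKM in the NOTCH1-labelled line and between 0.212 and 2.76 FPKM in MCF10A. NOTCH1 itself was at 12.4 FPKM under ginkgolic acid and 5.03 FPKM under DMSO in the NOTCH1-labelled line, and at 6.18 and 11.4 FPKM in MCF10A. The lower value of NOTCH1-labelled DMSO cells goes against the label, so the line is called by its label throughout. Any reads of the transgene that were assigned to this row are part of its one value, so the transgene cannot be read apart. Of 15 markers of fibroblasts, leukocytes and endothelium, 13 had a row, and none of these 13 was at 0 in any group. Their medians were 1.01 FPKM under ginkgolic acid and 1.48 under DMSO in the NOTCH1-labelled line and 2.095 and 1.18 FPKM in MCF10A. They reached up to 7.55 FPKM in the NOTCH1-labelled line and 13.6 FPKM in MCF10A, where CD14, a monocyte marker, was highest. Of those with a ratio, 1 of 9 was 2-fold or more higher and 2 lower in the NOTCH1-labelled line, and 3 of 11 were higher and 2 lower in MCF10A, and their part in the results was not tested. Olfactory receptor genes, chosen after the values were seen as genes mostly silent outside sensory neurons, had 90th percentiles of 0.879 FPKM under ginkgolic acid and 1.21 under DMSO in the NOTCH1-labelled line, and of 1.13 and 0.624 in MCF10A. Members near these values are pointed out below.

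EGFR, the receptor of epidermal growth factor, lay in a row on chromosome 7 from 55086714 to 55324313 (hg19, NOTCH1-labelled table). It was at 21.4 FPKM under ginkgolic acid and 18.1 FPKM under DMSO in the NOTCH1-labelled line. In MCF10A it was at 22.2 FPKM under ginkgolic acid and 34.9 FPKM under DMSO. The 2 ginkgolic acid groups and the NOTCH1-labelled DMSO group thus lay close together, and MCF10A under DMSO was highest. On the log2 scale the ratio of ginkgolic acid over DMSO was 0.24 in the NOTCH1-labelled line and −0.65 in MCF10A, both short of 2-fold. EGFR exceeded 78.8% and 79.6% of measured genes in the NOTCH1-labelled groups under ginkgolic acid and DMSO, and 81.5% and 86.0% in those of MCF10A.

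ERBB2, the partner receptor without a known ligand, was at 19.7 FPKM under ginkgolic acid and 27.5 FPKM under DMSO in the NOTCH1-labelled line, and at 22.2 and 36.8 FPKM in MCF10A. Both lines had the lower value under ginkgolic acid, with log2 ratios of −0.48 and −0.73, within 2-fold. EGFR stood to ERBB2 as 1.09 under ginkgolic acid and 0.660 under DMSO in the NOTCH1-labelled line, and as 1.00 and 0.948 in MCF10A, a ratio of levels within 1 group that needs no scaling between groups. The locus of the ERBB2 row, chromosome 17 from 37827375 to 37887040, also holds PGAP3 and MIEN1, which lie on the opposite strand. MIEN1 had 27.0 FPKM under ginkgolic acid and 10.8 under DMSO in the NOTCH1-labelled line, against 10.7 and 15.2 in MCF10A, and the sources used here do not say how strand was counted. The microRNA gene within ERBB2, MIR4728, was listed at 0 in all 4 groups.

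ERBB3 could not be read on its own. Its row with PA2G4, a growth regulator next to it on chromosome 12 (56473641 to 56507691), was at 193 FPKM under ginkgolic acid and 179 under DMSO in the NOTCH1-labelled line and at 110 and 138 FPKM in MCF10A. These values belong to both genes. ERBB4, the neuregulin receptor, which is in the family but not among the 10 members, was at 2.36 and 3.42 FPKM in the NOTCH1-labelled line under ginkgolic acid and DMSO. In MCF10A it was at 0.938 and 0.613 FPKM, under the 90th percentile of olfactory receptor genes in both groups.

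**Figure D1:**
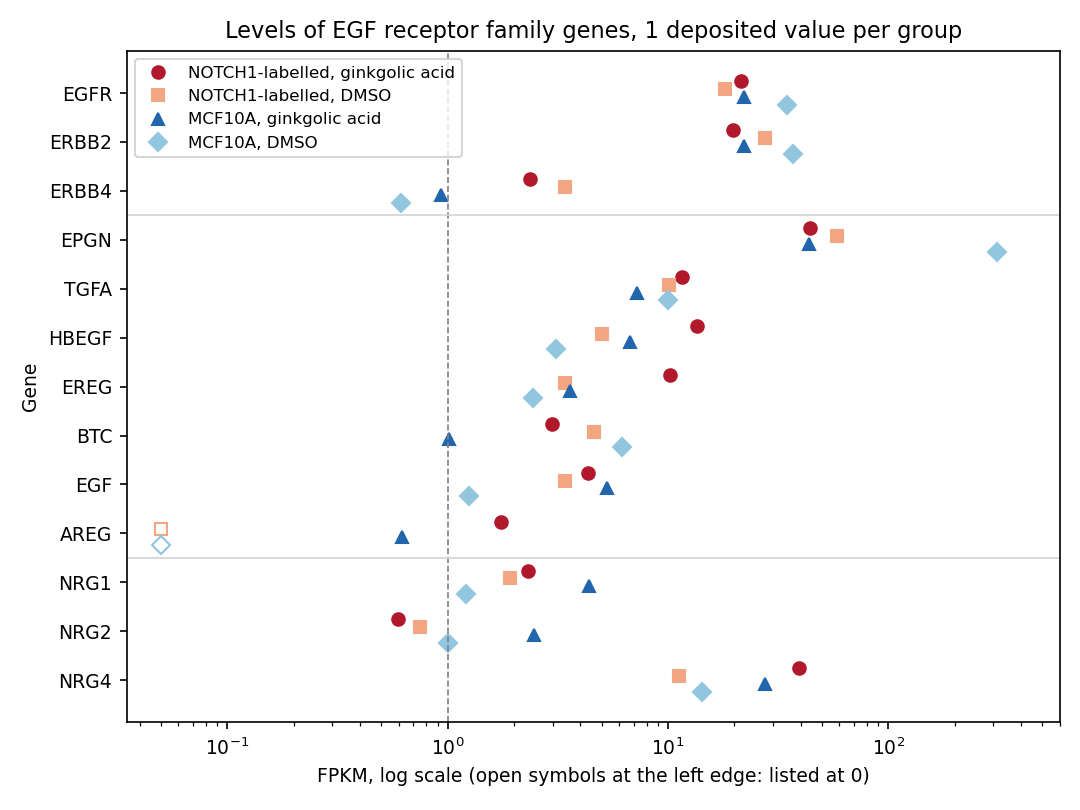
FPKM (log axis) of family genes in the 4 groups, 1 deposited value per point and so no error bars. Lines part receptors, ligands of EGFR and neuregulins, the dashed line marks 1 FPKM, and open symbols at the left edge are values listed at 0. EPGN in MCF10A under DMSO, at 312 FPKM, stands far to the right, whereas AREG was listed at 0 in both DMSO groups.

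HBEGF and EREG were the members higher by 2-fold or more under ginkgolic acid in the NOTCH1-labelled line, and HBEGF was also higher by 2-fold or more in MCF10A. HBEGF encodes heparin-binding EGF-like growth factor, which binds EGFR and ERBB4 (chromosome 5, 139712428 to 139726216). It was at 13.5 FPKM under ginkgolic acid and 5.00 FPKM under DMSO in the NOTCH1-labelled line, and at 6.76 and 3.09 FPKM in MCF10A. Within each line the ginkgolic acid group was the higher, 2.71-fold in the NOTCH1-labelled line and 2.18-fold in MCF10A. The MCF10A value falls short of 2-fold with a pseudocount of 1 FPKM, at a log2 ratio of 0.92.

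EREG encodes epiregulin, also a ligand of EGFR and ERBB4 (chromosome 4, 75230860 to 75254468). It was at 10.2 FPKM under ginkgolic acid and 3.41 FPKM under DMSO in the NOTCH1-labelled line, 3.00-fold apart. In MCF10A it was at 3.59 and 2.43 FPKM, 1.48-fold apart. The NOTCH1-labelled ginkgolic acid group had the highest value of the 4, and the others lay between 2.43 and 3.59 FPKM.

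AREG, the gene of amphiregulin, an EGFR ligand prominent in the mammary gland, was listed at 0 under DMSO in both lines. With ginkgolic acid it was at 1.75 FPKM in the NOTCH1-labelled line and 0.624 FPKM in MCF10A. No fold is given against a listed 0, which can be a failed estimate. Of these values, the MCF10A one lies under the 90th percentile of olfactory receptor genes, 1.13 FPKM, and the NOTCH1-labelled one above its own, 0.879 FPKM. The tables carry a second row under AREGB, an hg19 copy that RefSeq now lists as a synonym of AREG, and it was at 0 in all 4 groups. The sources used here do not say how reads matching both copies were assigned, so the AREG level is uncertain.

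TGFA, the gene of transforming growth factor alpha, had the smallest fold between its highest and lowest group among the ligand members (chromosome 2, 70674412 to 70781325). It was at 11.6 FPKM under ginkgolic acid and 10.1 FPKM under DMSO in the NOTCH1-labelled line, and at 7.23 and 10.0 FPKM in MCF10A. No group was 2-fold from another, and the log2 ratios were 0.19 and −0.47.

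BTC, which encodes betacellulin, another ligand of EGFR and ERBB4, was the member with the lowest ratio (chromosome 4, 75669969 to 75719961 in the MCF10A table). In MCF10A it was at 1.01 FPKM under ginkgolic acid and 6.18 FPKM under DMSO, 6.09-fold lower under ginkgolic acid. In the NOTCH1-labelled line it was at 2.96 and 4.62 FPKM, 1.56-fold lower. The MCF10A ginkgolic acid value lies under the 90th percentile of olfactory receptor genes in that group, 1.13 FPKM.

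EGF and NRG1 were the other members beyond 2-fold in MCF10A, both higher under ginkgolic acid. EGF, the gene of the growth factor that the medium also supplied, was at 5.30 FPKM under ginkgolic acid and 1.25 FPKM under DMSO in MCF10A, 4.24-fold higher. For the NOTCH1-labelled line the values were 4.31 and 3.41 FPKM, with a log2 ratio of 0.34. NRG1, which encodes neuregulin ligands of ERBB3 and ERBB4, was at 4.40 and 1.21 FPKM in MCF10A, 3.65-fold higher, and at 2.32 and 1.92 FPKM in the NOTCH1-labelled line, with a log2 ratio of 0.27. For both genes MCF10A under DMSO was the lowest of the 4 groups. NRG1 is no longer counted at a minimum of 5 FPKM. Genes that are mostly silent also had higher values under ginkgolic acid in MCF10A. The median olfactory receptor gene was at 0.480 FPKM under ginkgolic acid and 0.144 FPKM under DMSO there, against 0.228 and 0.480 FPKM in the NOTCH1-labelled line. The part of this shift in the EGF and NRG1 values was not tested.

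**Figure D2:**
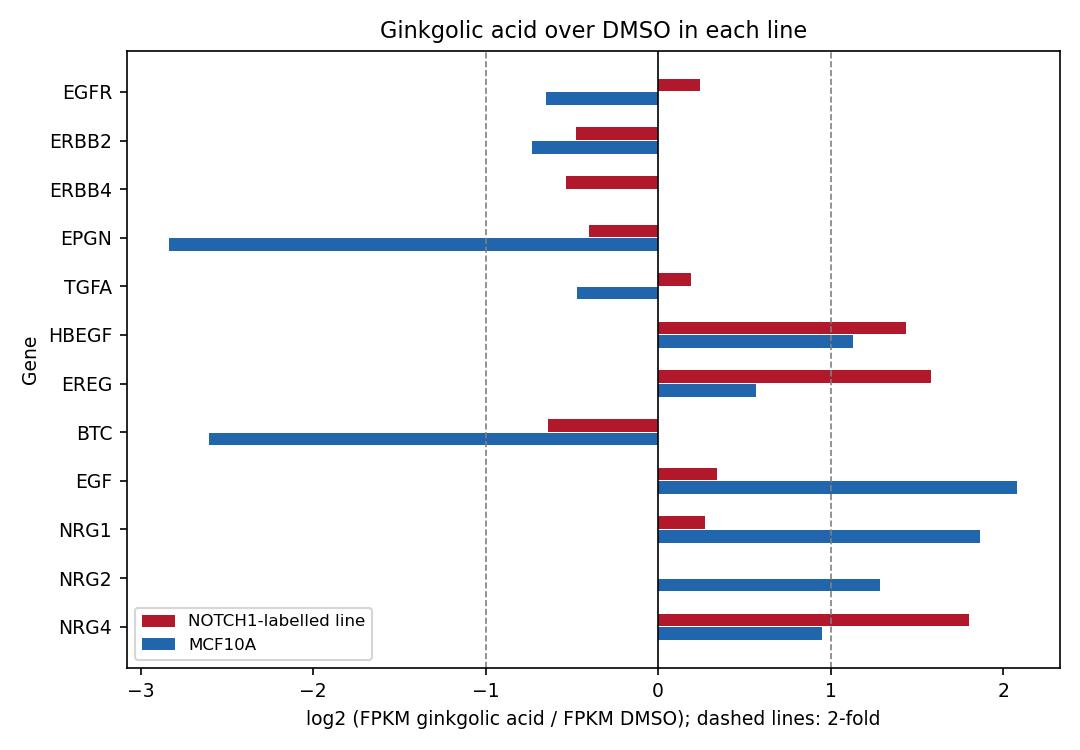
Log2 ratio of ginkgolic acid over DMSO (bars from 0) for receptors and ligands of the family, NOTCH1-labelled line above MCF10A for each gene, with dashed lines at 2-fold. HBEGF, EREG and NRG4 extend beyond 2-fold in the NOTCH1-labelled line, with NRG4 longest at 1.80, and EPGN, BTC, EGF, NRG1, NRG2 and HBEGF do so in MCF10A, with EPGN longest at −2.83. Missing bars are genes under 1 FPKM in both groups of a line, and AREG is not drawn because it was listed at 0 under DMSO.

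In the NOTCH1-labelled line, 2 of the 8 members with a ratio were higher by 2-fold or more and 0 were lower by 2-fold or more, where 18.9% of all 19487 genes were higher and 18.8% lower. In MCF10A, 3 of 8 were higher by 2-fold or more and 1 was lower by 2-fold or more, where 24.3% of 17630 genes were higher and 15.2% lower. The median log2 ratio of the members was 0.26 in the NOTCH1-labelled line and 0.05 in MCF10A, beside 0.06 and 0.07 over all genes with a ratio. Genes at 1 FPKM or more in both groups had medians of 0.14 in the NOTCH1-labelled line and −0.11 in MCF10A. Wherever the median ratio of a table is removed below, it is this one. The member counts, of a few genes, are near the background shares and say nothing particular about the family. Calls also depend on level. Of the 5 members that averaged under 5 FPKM over both groups in MCF10A, EREG, HBEGF, BTC, EGF and NRG1, 4 were beyond 2-fold in either direction, where 52.8% of all genes so weak were. TGFA, between 5 and 20 FPKM there, and EGFR and ERBB2, above 20 FPKM, were within 2-fold, where 29.6% and 20.7% of genes were beyond it. In the other line 0 of 3 members under 5 FPKM were beyond 2-fold, BTC, EGF and NRG1, where 47.9% of genes were. Of its 4 members between 5 and 20 FPKM, EGFR, EREG, HBEGF and TGFA, 2 were beyond, where 28.7% of genes were, and ERBB2, above 20 FPKM, was within, where 23.1% were beyond.

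Among the ligand genes of the family outside the members, EPGN had the highest level of all. EPGN encodes epigen, a ligand of EGFR (chromosome 4, 75173993 to 75184098 in the MCF10A table and 75174121 to 75181481 in the NOTCH1-labelled one). It was at 43.7 FPKM under ginkgolic acid and 312 FPKM under DMSO in MCF10A, 7.13-fold lower. In the NOTCH1-labelled line it was at 44.3 FPKM under ginkgolic acid and 58.6 FPKM under DMSO, 1.32-fold lower. The MCF10A DMSO group stands apart, and the other groups lay between 43.7 and 58.6 FPKM. Of the neuregulins, NRG4, a ligand of ERBB4, was at 39.3 and 11.3 FPKM in the NOTCH1-labelled line, 3.48-fold higher under ginkgolic acid, and at 27.5 and 14.2 FPKM in MCF10A, 1.93-fold higher. NRG2 was at 2.45 and 1.01 FPKM in MCF10A and stayed under 1 FPKM in the NOTCH1-labelled line. NRG3 stayed under 1 FPKM in all 4 groups.

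EPGN led the 7 ligand genes of EGFR in every group. It made up 50.01% of their summed FPKM under ginkgolic acid and 68.8% under DMSO in the NOTCH1-labelled line, and 64.1% and 93.1% in MCF10A. The sum over the 7 genes was 88.7 and 85.2 FPKM in the NOTCH1-labelled line, and 68.2 and 335 FPKM in MCF10A. Without EPGN the sum was 44.3 and 26.6 FPKM in the NOTCH1-labelled line and 24.5 and 22.96 FPKM in MCF10A, so the wide gap between the MCF10A sums is that of EPGN. Behind EPGN the order under ginkgolic acid in the NOTCH1-labelled line was HBEGF, TGFA, EREG, EGF, BTC and AREG, and under DMSO it was TGFA, HBEGF, BTC, EGF, EREG and AREG. In MCF10A it was TGFA, HBEGF, EGF, EREG, BTC and AREG under ginkgolic acid, and TGFA, BTC, HBEGF, EREG, EGF and AREG under DMSO. Whether neighbours in these orders differ cannot be told without replicate values.

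EPGN, EREG, AREG and BTC lie side by side on chromosome 4, from 75173993 to 75719961 (hg19, MCF10A table), about 546 kb from end to end. In MCF10A the genes at the ends, EPGN and BTC, were both lower by 2-fold or more under ginkgolic acid. The genes between them were not, with EREG at a log2 ratio of 0.57 and AREG listed at 0 under DMSO only. EREG was higher in the NOTCH1-labelled line, at 1.58, while EPGN and BTC had −0.40 and −0.64. The other named gene rows inside this stretch, AREGB included, were under 1 FPKM in both MCF10A groups.

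**Figure D3:**
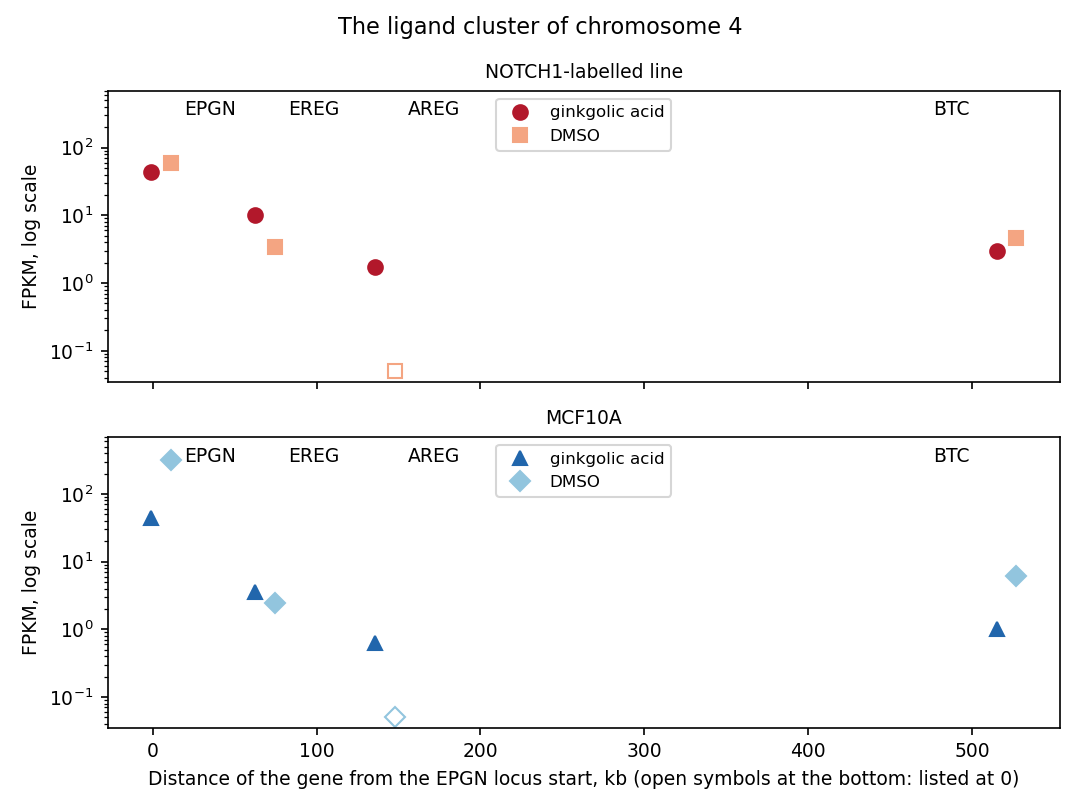
FPKM (log axis) of the chromosome 4 ligand genes against the distance from the start of the EPGN locus in kb, NOTCH1-labelled line in the upper panel and MCF10A in the lower. For each gene the left point is ginkgolic acid and the right one DMSO, 1 deposited value each, and open symbols at the bottom are listed at 0. In MCF10A the points of EPGN and BTC are far apart and those of EREG are close.

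The bases upstream of these starts are shown because neighbouring genes of the cluster had ratios in different directions, with HBEGF added as the ligand gene higher by 2-fold or more in both lines. Each window holds the 250 bases before the RefSeq start on GRCh38.p14, in the direction of the gene. The EPGN row starts at different bases in the 2 deposited tables, so the RefSeq start cannot be that of both rows. The hg19 starts of the EREG and AREG rows differ by the same number of bases from the GRCh38.p14 starts that follow their windows. With that shift, the EPGN window overlaps the EPGN row of both tables, and most of it lies within the MCF10A row. The windows are chr4:74308220-74308469 (plus strand) for EPGN, chr4:74364895-74365144 (plus) for EREG, chr4:74444886-74445135 (plus) for AREG, chr4:74794524-74794773 (minus) for BTC and chr5:140346604-140346853 (minus) for HBEGF. Capitals mark matches, on either strand, to the motifs AP-1 (TGANTCA), CRE (TGACGTCA), RBPJ (TGGGAA), the CCAAT box (CCAAT) and the GC box (GGGCGG).
EPGN: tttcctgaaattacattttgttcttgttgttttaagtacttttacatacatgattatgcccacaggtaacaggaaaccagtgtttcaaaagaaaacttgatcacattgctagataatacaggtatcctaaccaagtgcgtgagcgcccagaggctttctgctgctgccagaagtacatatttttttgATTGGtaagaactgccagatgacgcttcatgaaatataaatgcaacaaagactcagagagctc
EREG: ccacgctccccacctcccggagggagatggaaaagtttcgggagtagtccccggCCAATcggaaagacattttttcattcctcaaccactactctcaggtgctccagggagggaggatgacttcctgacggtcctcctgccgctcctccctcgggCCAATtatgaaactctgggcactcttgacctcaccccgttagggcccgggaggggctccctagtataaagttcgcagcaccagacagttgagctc
AREG: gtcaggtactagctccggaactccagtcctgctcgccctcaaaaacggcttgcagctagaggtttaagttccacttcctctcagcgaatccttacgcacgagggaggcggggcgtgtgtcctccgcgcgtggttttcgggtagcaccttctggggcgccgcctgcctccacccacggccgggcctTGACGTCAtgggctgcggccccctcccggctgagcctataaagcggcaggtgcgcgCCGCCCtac
BTC: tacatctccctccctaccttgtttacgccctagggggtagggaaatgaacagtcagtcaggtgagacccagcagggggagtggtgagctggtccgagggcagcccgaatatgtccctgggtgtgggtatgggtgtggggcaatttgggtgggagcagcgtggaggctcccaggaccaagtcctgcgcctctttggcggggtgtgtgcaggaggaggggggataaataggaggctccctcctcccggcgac
HBEGF: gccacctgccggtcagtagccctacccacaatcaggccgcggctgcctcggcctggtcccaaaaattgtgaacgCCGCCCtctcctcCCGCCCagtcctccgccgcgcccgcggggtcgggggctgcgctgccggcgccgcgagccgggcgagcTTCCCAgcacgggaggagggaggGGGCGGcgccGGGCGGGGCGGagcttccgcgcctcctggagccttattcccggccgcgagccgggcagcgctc

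The AREG window held a CRE at −65 to −58 from the start, a motif found in 1.65% of 35116 promoter windows of this length, and 1 GC box. EREG held 2 CCAAT boxes and EPGN held 1, a motif in 32.0% of all windows. By the shift between builds given above, the CCAAT box of EPGN lies within the EPGN row of both tables. HBEGF held 5 GC boxes, of which a pair shared 1 base, and 1 RBPJ motif, against 42.6% and 20.8% of all windows with at least 1. BTC held none of the 5 motifs. No AP-1 motif, present in 6.57% of all windows, was in these 5 windows. Of the windows scanned but not printed, window 2 of EGFR and those of ERBB2 and EGF held AP-1 motifs. Window 1 of EGFR and the TGFA windows did not. EPGN was 38% G and C, while the other printed windows ranged from 58% to 76.4%. The matches describe the letters of these windows and say nothing about binding.

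Set across the lines, with the factor between tables unknown, EGFR was at 18.1 FPKM in the NOTCH1-labelled line and 34.9 FPKM in MCF10A under DMSO, a log2 ratio of −0.94. EGF was the only member higher by 2-fold or more in NOTCH1-labelled DMSO cells, 2.72-fold, which falls to a log2 ratio of 0.97 with a pseudocount of 1 FPKM, and 0 of 8 members with a ratio were lower by 2-fold or more, where 25.9% of all genes were higher and 10.2% lower. EPGN was at 58.6 FPKM in the NOTCH1-labelled line and 312 FPKM in MCF10A under DMSO, 5.32-fold lower in the NOTCH1-labelled line. Its row spans a longer locus in the MCF10A table, and the part of this in EPGN levels set across the lines was not tested. With ginkgolic acid, AREG, EREG, HBEGF and BTC were each higher by 2-fold or more in the NOTCH1-labelled line, from 2.005-fold for HBEGF to 2.92-fold for BTC, and 0 of 9 members were lower by 2-fold or more, where 20% of all genes were higher and 13.3% lower. EGFR and EPGN were then close, at 21.4 and 22.2 FPKM and at 44.3 and 43.7 FPKM. HBEGF falls to a log2 ratio of 0.64 when levels are scaled to the median gene, and AREG, HBEGF and BTC fall to 0.76, 0.91 and 0.98, short of 2-fold with a pseudocount of 1 FPKM. The MCF10A values of AREG and BTC, 0.624 and 1.01 FPKM, lie under the 90th percentile of olfactory receptor genes in that group, 1.13 FPKM.

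The difference between the responses, the log2 ratio of the NOTCH1-labelled line minus that of MCF10A, does not compare levels across the tables. It was 1.97 for BTC and 1.02 for EREG, and −1.74 for EGF and −1.59 for NRG1, so 2 of 8 members were at least 1 higher and 2 at least 1 lower. Over 15479 genes 21.6% were at least 1 higher and 22.4% at least 1 lower. At a minimum of 5 FPKM in each line none of these 4 members is measured in both lines, and the counts are 0 and 0. EREG falls short of this limit with a pseudocount of 1 FPKM, at 0.92, and with the median ratio of each table removed, at 0.77. The differences of EGFR, TGFA, HBEGF and ERBB2 were 0.89, 0.66, 0.31 and 0.25. EPGN differed by 2.43. None of these differences could be tested, and a different starting level under DMSO also enters them.

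**Figure D4:**
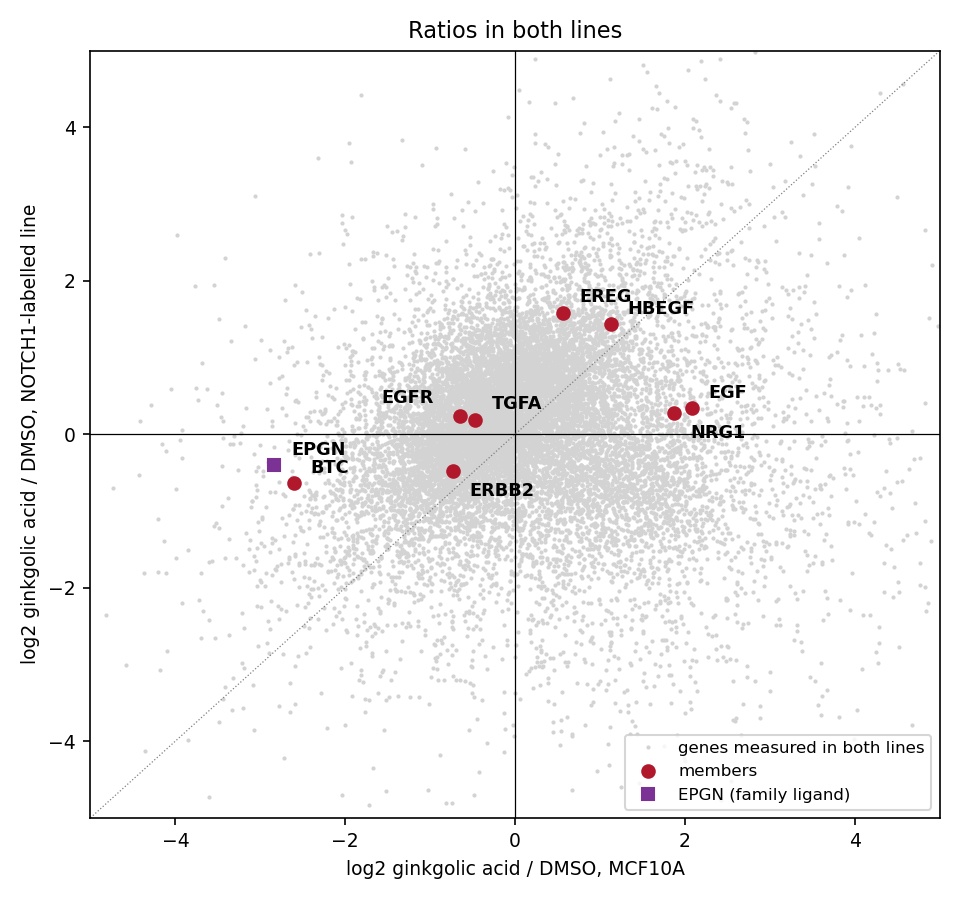
Log2 ratio of ginkgolic acid over DMSO in the NOTCH1-labelled line (vertical) against MCF10A (horizontal), with 15376 of 15479 genes measured in both lines in grey, 103 outside the axes, members as red circles and EPGN as a purple square. The dotted line marks equal ratios. EREG and HBEGF lie at the upper right, EGF and NRG1 to the right near 0 on the vertical axis, and BTC beside EPGN at the left.

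Likeness of response was measured as the distance in the plane of both log2 ratios, over 2 comparisons, keeping genes of 5 FPKM or more in every group. The genes nearest to EGFR were ITGB1BP1, NUBPL, DDX41, DCTD and PAFAH1B3, at distances of 0.0068 to 0.020. With 417 of 6895 genes within 0.25 of EGFR, its pair of ratios was a common one. BTC had none within that distance. Its nearest gene was RP11-126K1.8 at 0.29, and EPGN was the second at 0.33, followed by PIGA, TP53I3 and CCDC137. EGF and NRG1 had 1 and 2 genes within 0.25, with PGM3 nearest to EGF at 0.19 and DMD nearest to NRG1 at 0.19. BTC, EGF and NRG1 did not themselves reach 5 FPKM in every group. Genes as weak as they, which more often have large ratios, were left out of the search. Their few neighbours can therefore not be set against the number for EGFR.

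Among genes that release the ligands, FRMD8 and RHBDF2 were beyond 2-fold in MCF10A and ADAM12 in the NOTCH1-labelled line. ADAM17 cuts most ligand precursors of EGFR, and the iRhom proteins of RHBDF1 and RHBDF2, with the FRMD8 protein, bring it to the cell surface. Of the 7 measured shedding genes, 0 were higher by 2-fold or more and 2 lower by 2-fold or more in MCF10A, beside 24.3% and 15.2% of all genes. Their median log2 ratio was −0.90, beside 0.07 over all genes with a ratio and −0.11 over genes at 1 FPKM or more in both groups. In the NOTCH1-labelled line the medians over all these genes were 0.06 and 0.14. FRMD8 was at 1.08 FPKM under ginkgolic acid and 9.25 FPKM under DMSO in MCF10A, and RHBDF2, which is not counted at a minimum of 5 FPKM, at 0.658 and 2.82 FPKM. Both ginkgolic acid values lie under the 90th percentile of olfactory receptor genes in that group, 1.13 FPKM. ADAM17 was at 15.9 and 29.7 FPKM, a log2 ratio of −0.90, within 2-fold. The median in the NOTCH1-labelled line was −0.05, with ADAM12 the gene higher by 2-fold or more, at 5.14 and 2.54 FPKM, and 0 lower by 2-fold or more, beside 18.9% and 18.8% of all genes. Removing the median ratio of the table ends the ADAM12 call and puts FRMD8 beyond 2-fold lower in its place, so that 0 are higher and 1 lower. FRMD8 was at 4.71 and 8.58 FPKM there and RHBDF2 at 1.98 and 1.75 FPKM.

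Genes that restrain the receptors had a median log2 ratio of 0.38 in the NOTCH1-labelled line and −0.51 in MCF10A over 12 genes. The medians of all genes at 1 FPKM or more in both groups were 0.14 and −0.11. CBLC and CBLB, ubiquitin ligase genes of the family that marks EGFR for degradation, were higher by 2-fold or more in the NOTCH1-labelled line, at 6.93 FPKM under ginkgolic acid and 1.73 under DMSO and at 7.61 and 3.64 FPKM. These 2 of 12 genes stand beside 18.9% of all genes, and CBLB falls short of 2-fold with the median ratio removed. In MCF10A they were at 6.51 and 4.37 FPKM and at 10.2 and 6.12 FPKM, within 2-fold. LRIG3, of a family of membrane proteins that includes inhibitors of these receptors, was the gene lower by 2-fold or more in MCF10A, at 6.84 and 17.5 FPKM, beside 15.2% of all genes. There 0 of 12 were higher by 2-fold or more, beside 24.3% of all genes. In the NOTCH1-labelled line 0 were lower by 2-fold or more, beside 18.8% of all genes. ERRFI1, the gene of the EGFR inhibitor MIG6, was named after its values were seen. Its log2 ratio was 0.24 in both lines.

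The cascades below the receptor were read beside the shares of all genes, 18.9% higher and 18.8% lower in the NOTCH1-labelled line and 24.3% and 15.2% in MCF10A. Of 14 measured adaptor and RAS-MAPK genes, 1 was higher by 2-fold or more and 0 were lower in the NOTCH1-labelled line, with a median log2 ratio of 0.36, and 1 was higher and 1 lower in MCF10A, with a median of −0.31. BRAF, a kinase that RAS activates, was the higher gene in both, at 7.50 FPKM under ginkgolic acid and 3.39 under DMSO in the NOTCH1-labelled line and at 8.26 and 3.42 FPKM in MCF10A. HRAS, a RAS GTPase gene, was the lower one in MCF10A, at 35.2 and 101 FPKM. Of 12 genes of the PI3K, AKT and STAT branch, 0 were higher by 2-fold or more in either line, and STAT5A was lower in the NOTCH1-labelled line, at 1.94 and 5.59 FPKM. STAT5B and AKT2 were lower in MCF10A, at 4.88 and 12.4 FPKM and at 41.3 and 88.5 FPKM, and AKT2 falls short of 2-fold with the median ratio removed. The medians of that branch were −0.11 in the NOTCH1-labelled line and −0.33 in MCF10A. Beside both lists, genes at 1 FPKM or more in both groups had medians of 0.14 in the NOTCH1-labelled line and −0.11 in MCF10A.

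Genes that respond to ERK, the end of the RAS-MAPK cascade, had ratios on both sides of 0. In the NOTCH1-labelled line 6 of 16 measured genes were higher by 2-fold or more and 1 was lower by 2-fold or more, beside 18.9% and 18.8% of all genes, with a median of 0.38. DUSP5, a phosphatase gene of ERK feedback, was at 9.49 FPKM under ginkgolic acid and 0.454 under DMSO there, and IER3, an immediate early gene, at 95.4 and 15.1 FPKM. ETV4, an ETS transcription factor gene, was at 1.09 and 0.155 FPKM, and the transcription factor gene EGR1 at 0.198 and 1.27 FPKM. DUSP5 and ETV4 under DMSO lie under the 90th percentile of olfactory receptor genes in that group, 1.21 FPKM. EGR1 under ginkgolic acid lies under that of its group, 0.879 FPKM. In MCF10A 4 of 15 were higher by 2-fold or more and 2 lower by 2-fold or more, beside 24.3% and 15.2% of all genes, with a median of 0.68. DUSP4, another ERK phosphatase gene, was at 8.25 and 0.777 FPKM and PHLDA1 at 1.98 and 0.451 FPKM, while CCND1, the gene of cyclin D1, was at 3.55 and 13.1 FPKM and ETV4 at 1.07 and 0.296 FPKM. In MCF10A, PHLDA1 under DMSO and ETV4 in both groups lie under the olfactory receptor percentiles, 0.624 FPKM under DMSO and 1.13 FPKM under ginkgolic acid. With a minimum of 5 FPKM in either group, 2 higher and 0 lower genes are left in the NOTCH1-labelled line and 1 higher and 2 lower in MCF10A.

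**Figure D5:**
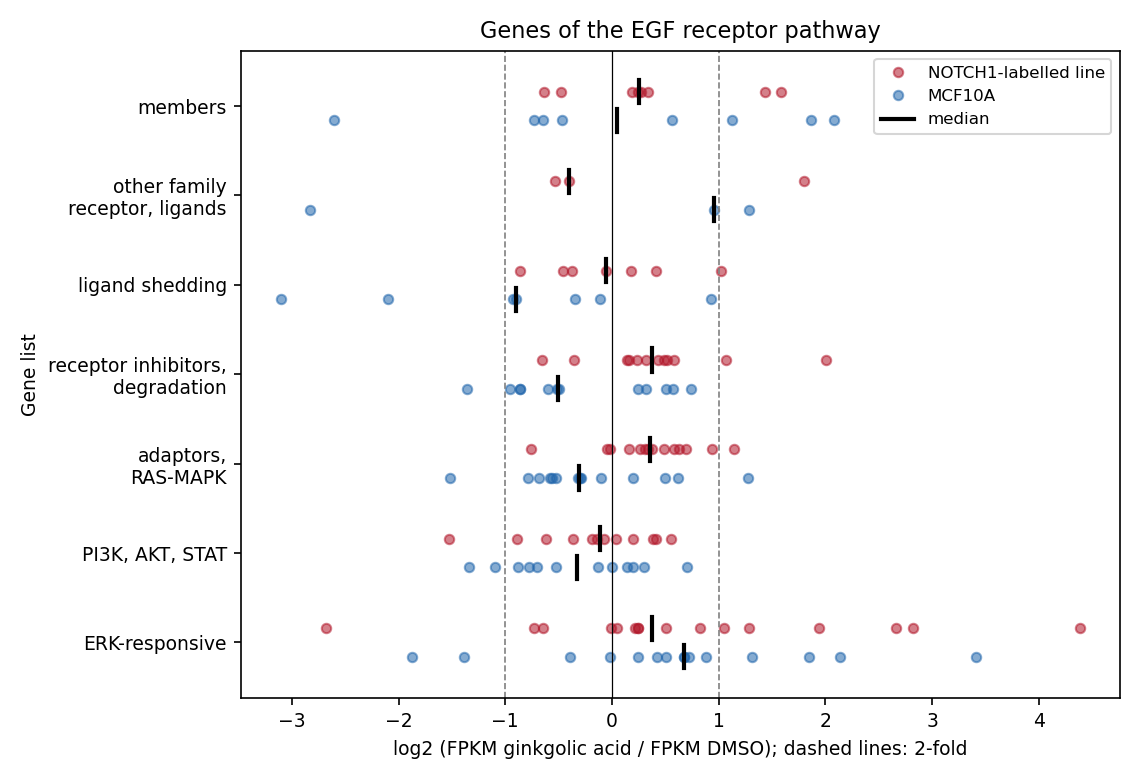
Log2 ratio of ginkgolic acid over DMSO for each measured gene (points) of the members and of 6 pathway lists, NOTCH1-labelled line above MCF10A in each list, with black bars at the medians and dashed lines at 2-fold. The medians of the receptor inhibitor and RAS-MAPK lists lie above 0 in the NOTCH1-labelled line, at 0.38 and 0.36, and below 0 in MCF10A, at −0.51 and −0.31. All genes at 1 FPKM or more in both groups had medians on the same sides, 0.14 and −0.11. The points of the ERK-responsive genes spread widest in the NOTCH1-labelled line.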

How the data were processed

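RNeasy-purified total RNA went into ScriptSeq Complete Gold libraries, per the labels' protocols. The submitters' processing notes name TopHat2 2.0.8b, Bowtie2 2.1.0, Cufflinks 2.1.1, Cuffdiff 2.1.1 and the build GRCh37 (hg19). The sources used here do not give the annotation, the settings or how both samples of a group entered 1 value. Deposited by the authors were 2 tables, 1 per line, with 1 FPKM value per gene and group, per the file headers. No counts, samples' values or p-values were in them, so the planned size rule of 2-fold was used without a test, and no interval that needs depth is given.

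Unnamed rows, joined rows, rows off the main chromosomes, small RNAs (GENCODE release 29 types or under 200 bases) and repeated symbols were dropped, leaving 41763 gene rows for the NOTCH1-labelled line and 41732 for MCF10A. Ratios are on the log2 scale with no pseudocount added, and a gene at 0 in a group has no ratio. Loci are those of the tables on hg19, and a locus can span neighbouring genes. Promoter sequences are from RefSeq on GRCh38.p14. Windows of EPGN and of 8 of the 9 members with their own row were scanned, and not all of them are printed. From each pathway list the text names up to 4 genes per line with the largest ratio beyond 2-fold, and other genes named beside the family and NOTCH1 were chosen after their values were seen or by likeness to a member. The members and lists were chosen with earlier results of these data known. Python 3.11.15, numpy 2.4.6, pandas 2.3.3 and matplotlib 3.10.9 were used.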

Additional observations from a re-analysis of the deposited data

How the results depend on the processing

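No paired analysis was possible because the deposited tables hold 1 value per group, and for the same reason leaving out a replicate was not run. Other settings were no minimum, 5 FPKM as the minimum, 1 FPKM added as a pseudocount, removal of the median ratio of a table and, across lines, scaling to the median gene. Counting the joined row of ERBB3 as a member was added after seeing the data. None of these reversed a ratio beyond 2-fold, and the counts of members beyond 2-fold within a line stayed within 1.5 times, with 3 higher in the NOTCH1-labelled line and 2 in MCF10A under a pseudocount. Of 117 values of family genes under these settings, within a line or as a difference between lines, 112 kept their side of 2-fold. Among them, the 32 values with no minimum and the 21 at a minimum of 5 FPKM could not change. A minimum only selects genes and leaves a ratio as it is. Only the pseudocount and the removed median could move a value, and all that changed side did so under these.

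Differences of responses between lines lost all members at a minimum of 5 FPKM (0 higher and 0 lower, from 2 and 2), and 1 was higher with a pseudocount and 1 with the median removed. Across lines, 1 member was higher with ginkgolic acid under a pseudocount, 1 (NRG1) was lower under scaling, and 0 were higher with DMSO under a pseudocount. With the median ratio removed, the NOTCH1-labelled line had 0 higher and 1 lower shedding genes, 1 higher receptor inhibitor gene and 2 lower PI3K branch genes, and MCF10A had 2 higher family genes outside the members, 1 higher shedding gene and 1 lower PI3K branch gene. With a minimum of 5 FPKM, the NOTCH1-labelled line had 2 higher and 0 lower ERK-responsive genes, and MCF10A had 1 higher ERK-responsive gene, 0 higher family genes outside the members and 1 lower shedding gene. Of single genes under scaling, TGFA with DMSO turned to −0.0015 and EPGN with ginkgolic acid to −0.34 across lines. Replicate error and depth are unknown, which limits every value.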
